A study of Mus musculus with 3 samples.

Results

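Muscle border stroma spots were the positions of mouse uterine sections that held an intermediate amount of smooth muscle RNA. A spot is a small barcoded area of a Visium slide, a spatial RNA-seq assay in which a section is laid on an array of such areas, and it can hold several cells of different types or part of a cell. A spot was a member when it had at least 1000 UMIs (counted RNA molecules), a summed level of Acta2, Actg2, Tagln, Myh11 and Cnn1 from 4000 to under 20000 CPM (UMIs of a gene per 1000000 UMIs of the spot), under 2000 CPM of Sfrp4 and Rbp4 together and under 1000 CPM of Prss28 and Prss29 together. This chose 423 of the 3939 spots kept. The library of replicates 1 and 2 gave 206 of its 1773 kept spots, 11.6% (95% Clopper-Pearson interval 10.2 to 13.2). Replicate 3 gave 112 of 1080, 10.4% (8.62 to 12.3), and replicate 4 gave 105 of 1086, 9.67% (7.98 to 11.6). The mean share was 10.6% ± 0.988 (SD, n = 3 libraries), and the intervals cover counting error only.

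The sections came from pregnant female mice on day 7.5 after mating with stud males. The females had normal chow and lived with female littermates until the age of 8 weeks. The sources used here name no strain, allele or treatment, so the 3 libraries form 1 group, and every comparison is between classes of spots of the same libraries. The library of replicates 1 and 2 holds 2 biological replicates that its label does not separate, so it was counted as 1 sample. Values of single libraries are given in the order replicates 1 and 2, replicate 3, replicate 4. The library was a block in the fits, so all p-values rest on how much the differences between classes vary over these 3 libraries. That spread may be technical in part.

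The uterus is wrapped in the myometrium, sheets of smooth muscle that carry contractile proteins such as the actins and smooth muscle myosin. Collagens, elastin and proteoglycans made by fibroblasts and muscle cells tie these sheets to the stroma beneath them. By this stage of mouse pregnancy the stroma around the embryo has turned into decidua, a swollen secretory tissue, and a thin rim of stroma near the muscle has not.

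The kept spots fell into 5 classes, and 4 of them entered the fit of classes. Muscle core spots had at least 20000 CPM of the 5 muscle genes (179 spots). Sfrp4 Rbp4 stroma spots had at least 2000 CPM of that pair and less muscle than the core (283 spots). Low-muscle spots had under 4000 CPM of muscle and under 2000 CPM of the pair (2801 spots). Spots with at least 1000 CPM of Prss28 and Prss29, proteases of uterine glands, were taken out of all 4 and made up the last class (253 spots), which was only counted. The members were chosen by the 9 genes of the rule, so those genes are described without a test and stayed out of every fit.

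Border spots were shallower than low-muscle spots. Their median was 5336, 13407 and 17299 UMIs per spot, against 5728, 15106 and 20833 in core spots and 11359, 28798.5 and 31171 in low-muscle spots. The libraries held 16915926, 27279702 and 29953072 UMIs in all. A Visium barcode is a position on the slide, and pairs of libraries shared 780, 676 and 825 of them. Levels below are CPM of UMIs summed per library and class, so that fewer cells of a type and less RNA per cell cannot be told apart. The 9 mitochondrially encoded genes, a sign of RNA quality that also varies with cell type, had a median log2 fold change of 0.83 in border spots over all other spots, and none of them passed the call. Their part in the results was not tested.

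By the rule, the summed muscle level of members ran from 4314.99, 4060.64 and 4032.79 CPM at the lowest to 19830.6, 19968.2 and 19753.1 CPM at the highest. The nearest spots outside had 3992.69, 3933.43 and 3962.06 CPM below and 20000, 20062.3 and 20147.8 CPM above. The window of muscle level alone held 283, 131 and 162 spots. Of these, 30, 4 and 9 were over the stroma limit and 58, 16 and 51 over the gland limit, and spots over both are in both counts. Of the markers given for these spots, Acta2 and Myh11 belong to the rule. Acta2, the smooth muscle actin, had 3848, 3772 and 3879 CPM in border spots and 679, 297 and 420 CPM in all other kept spots.

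The other markers were outside the rule and both were high. Eln, which encodes elastin, the stretchable core of elastic fibres (chr5:134702593-134747323, build GRCm38), had 643, 617 and 467 CPM in border spots and 145, 160 and 113 CPM in all other kept spots. Every library had more than 3 times as much in border spots (log2 fold change 2.03, SE 0.07, edgeR quasi-likelihood test, Benjamini-Hochberg adjusted p = 4.1e-12). Cxcl12, a chemokine of stromal and perivascular cells (chr6:117168535-117181367), had 128, 147 and 117 CPM in border spots and 20.6, 23.3 and 22.6 CPM in the others (log2 fold change 2.53, SE 0.10, edgeR, adjusted p = 6.7e-12). The level of Acta2 was set by the rule, and Eln and Cxcl12 were given as markers with earlier results of these data known, so these values describe the spots and do not support the label. Whether these spots lie at the edge of the muscle was not tested, because the files used here give no spot coordinates.

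Against all other kept spots, 13256 genes could be tested, and 1416 (10.7%) were called higher and 1076 (8.12%) lower in border spots at an adjusted p under 0.05 and at least 2-fold. The members of a gene list are read against those shares and against the median log2 fold change of all genes tested, which was 0.00. Genes enter the fit only above a minimum count, which the class where they are high can meet alone, so each list is given with how many of its genes were tested.

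Contractile genes outside the rule made up the first group. Of 18 such genes, 18 were tested, 15 were called higher, none lower, and the median log2 fold change was 2.33. They come from the same cells as the genes that chose the spots, so they describe the rule and support nothing. Acta1, the actin best known from skeletal muscle, had 373, 331 and 266 CPM in border spots and 38.3, 15.6 and 22.6 CPM in the others. Myl9, the regulatory light chain of smooth muscle myosin, had 2779, 2765 and 2875 CPM in border spots and 534, 206 and 328 CPM in the others. Pgm5, Lmod1 and Jph2, proteins of the muscle cell's adhesions, actin filaments and calcium stores, stood among the 15 largest rises at log2 fold changes of 3.26, 3.17 and 3.17.

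Contractile genes were lower in border spots than in muscle core spots, which the muscle limits of the classes lead to. Myl9 reached 7584, 6303 and 7582 CPM in core spots, and Pcp4, a calmodulin regulator of muscle (chr16:96467606-96525793), had 789, 1004 and 726 CPM in border spots against 3659, 3653 and 2882 CPM in core spots. The border and core libraries did not overlap for either gene. Of 17 contractile genes tested, 13 were called lower than in core spots and none higher, with a median log2 fold change of -1.34, beside 0.01 for all genes. In all, 10509 genes could be tested in the fit of classes, and 270 (2.57%) were called higher and 311 (2.96%) lower in border than in core spots. Without the library of replicates 1 and 2 these counts were 150 and 197, and without replicate 4 they were 161 and 207. The largest falls among named genes were those of Pcp4 (log2 fold change -2.14), Sh3bgr (-1.93) and Hspb6 (-1.84, a small heat shock protein of smooth muscle), each with lower values in border spots in 3 of 3 libraries.

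Smooth muscle genes are known to carry the serum response factor box in their promoters, 10 bases of the form CCNNNNNNGG with an A- and T-rich middle. The sequences are shown because these genes follow the muscle level of spots, and capitals mark each box with at least 5 of 6 middle bases A or T, which is its own form on both strands. They lie upstream of the transcription start, in the direction of the gene, from RefSeq on GRCm38.p6: Myl9 at chr2:156775283-156775394 on the plus strand, Acta1 at chr8:123894819-123895000 on the minus strand and Pcp4 at chr16:96467479-96467528 on the plus strand.
Myl9: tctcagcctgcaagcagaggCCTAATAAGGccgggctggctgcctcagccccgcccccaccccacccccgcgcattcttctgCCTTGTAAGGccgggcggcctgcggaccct
Acta1: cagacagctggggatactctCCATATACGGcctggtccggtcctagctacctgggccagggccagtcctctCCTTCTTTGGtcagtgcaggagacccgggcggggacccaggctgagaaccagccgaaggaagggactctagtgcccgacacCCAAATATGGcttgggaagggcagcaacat
Pcp4: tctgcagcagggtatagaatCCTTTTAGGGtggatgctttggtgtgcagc
In the 250 bases before the start, 2643 of 27025 gene symbols of that table (9.78%) held such a box before at least 1 of their listed starts, which for Hspb6 lies inside the gene. Among the named genes that fell most against core spots, 4 of the 7 with a promoter in the table held it. It was held by 3 of 16 other contractile genes, 2 of 9 fibrillar and associated collagens and 1 of 9 elastic fibre genes. A box with all 6 middle bases A or T was rarer. It was held by 439 symbols (1.62%), 1 of those 7 named genes, 1 of the 16 contractile genes and none of these collagen and elastic fibre genes. Of the 44 genes that were highest in border spots, described next, 27 had a promoter there and 0 held the box. A match is a description of letters, and no match says nothing of the factor.

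The genes of most interest were those whose level in border spots lay outside the range between the muscle core and the low-muscle spots. The Sfrp4 Rbp4 stroma spots are no part of that range, and whether RNA of such stroma within border spots takes part in these levels was not tested. A gene was called when border spots differed from both classes in the same direction, by at least 1.5-fold each, at an adjusted p under 0.05 for the weaker contrast. Of 10509 genes, 44 (0.419%) were called highest and 7 (0.0666%) lowest. Without the library of replicates 1 and 2 the counts were 24 and 3, and without replicate 4 they were 23 and 0. Without the library as a block, 4 were highest and 0 lowest. Those 4 genes, Eln, Mfap4, Lox and Aldh1a2, stayed called under each of the 10 other settings tried, and they carry the account that follows.

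**Figure D1:**
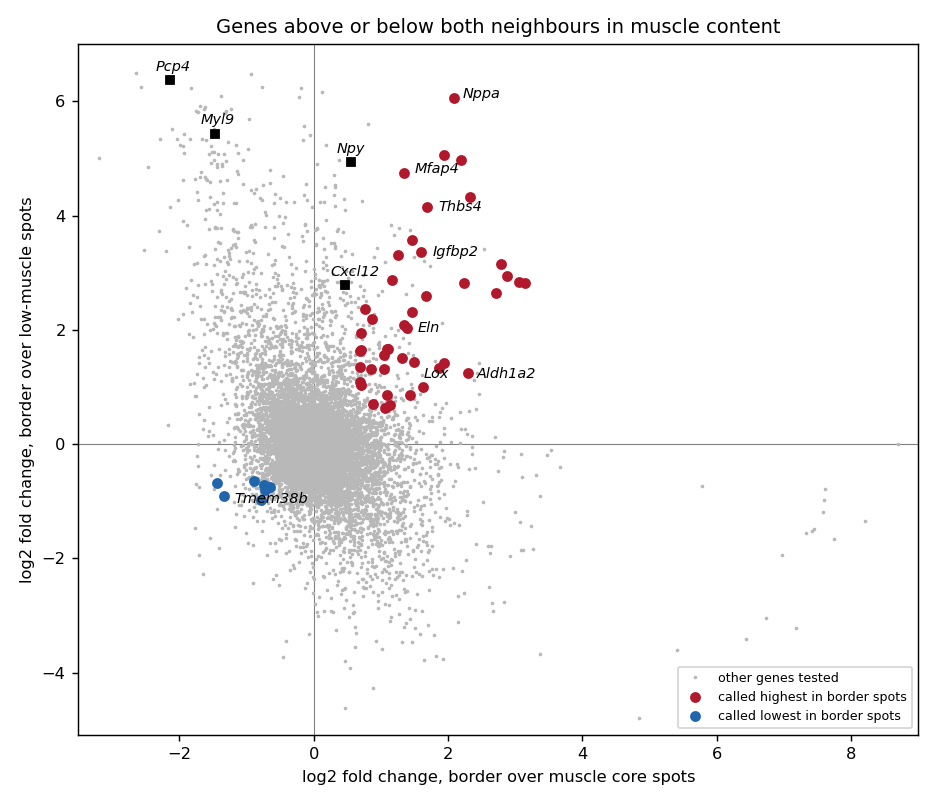
Each point is a gene of the fit of classes, placed by its log2 fold change in border over muscle core spots (horizontal) and in border over low-muscle spots (vertical). The 44 genes called highest in border spots (red) lie above 0 on both axes and the 7 called lowest (blue) below 0 on both, while contractile genes such as Myl9 and Pcp4 (black squares) are below core spots and above low-muscle spots.

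Elastic fibre genes stood out first. Eln had 177, 228 and 202 CPM in core spots, 145, 163 and 110 CPM in low-muscle spots and 128, 103 and 134 CPM in Sfrp4 Rbp4 stroma spots, all far under its 643, 617 and 467 CPM in border spots. The log2 fold change was 1.39 (SE 0.15, edgeR, adjusted p = 4.9e-07) over core spots and 2.10 (SE 0.14, edgeR, adjusted p = 1e-10) over the stroma spots, and the groups did not overlap. Eln was thus higher in border spots than in each of the 3 other classes of the fit.

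Mfap4, a glycoprotein of elastic fibres (chr11:61485431-61488900), had 333, 286 and 294 CPM in border spots, 92.1, 142 and 106 CPM in core spots and 10.9, 13.4 and 8.97 CPM in low-muscle spots. Its level in the stroma spots, 337, 238 and 371 CPM, overlapped that in border spots. Lox, the enzyme that crosslinks elastin and collagen, had 271, 243 and 244 CPM in border spots, 90.8, 72.3 and 85.1 CPM in core spots and 91.4, 74.9 and 111 CPM in low-muscle spots. Its level in the stroma spots, 365, 270 and 339 CPM, was above that in border spots in 3 of 3 libraries. Highest here therefore means above the core and the low-muscle spots and not always above the stroma spots.

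Over the whole elastic fibre list, 15 of 15 genes were tested, and 10 were called higher and none lower in border spots than in all others (median log2 fold change 1.49). Against core spots 6 were called higher, Eln, Fbln2, Mfap5, Mfap4, Fbln5 and Lox, and none lower. Against the Sfrp4 Rbp4 stroma spots 3 were called higher, Eln, Efemp1 and Loxl2, and 1 lower, Mfap5. The median log2 fold change over the stroma spots was 0.18. The list summed to a mean of 4203 CPM in border spots and 4465 CPM in stroma spots, so its summed level was not particular to border spots. The list was not uniform. Loxl1, a relative of Lox that elastic fibres need, had 227, 196 and 193 CPM in border spots and 179, 175 and 201 CPM in core spots, so that these groups overlapped. Fbn1, the fibrillin of microfibrils, had 420, 403 and 376 CPM in border spots and 341, 482 and 386 CPM in all other spots, and did not pass the test (edgeR, adjusted p = 0.88). Mfap5, a microfibril protein, had 852, 712 and 724 CPM in border spots, 291, 284 and 271 CPM in core spots and 1726, 1656 and 1567 CPM in stroma spots.

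**Figure D2:**
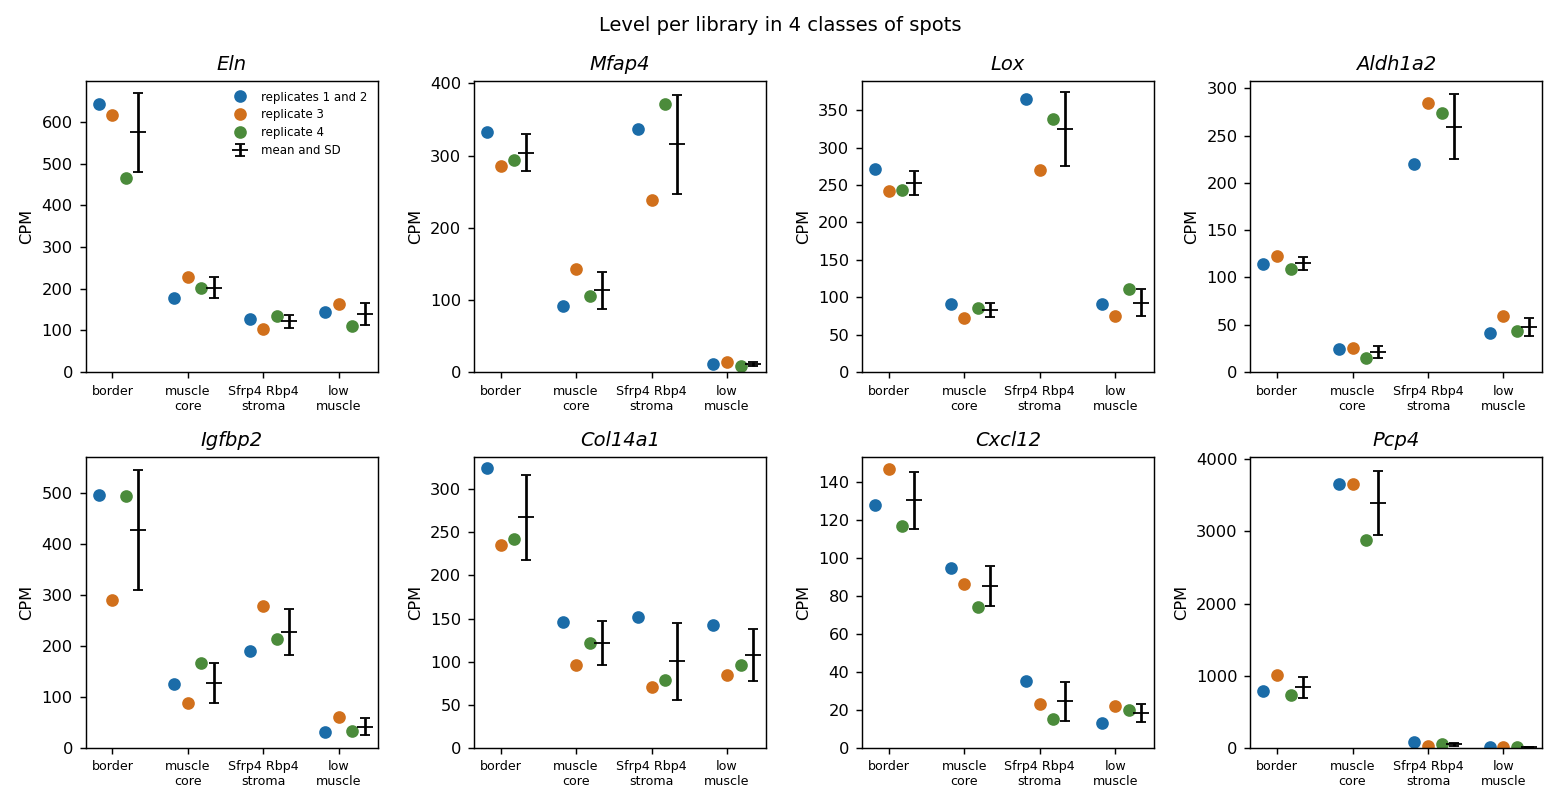
Levels of 8 genes in CPM, by class of spots from left to right border, muscle core, Sfrp4 Rbp4 stroma and low-muscle, with a point per library and the mean with its SD (n = 3). Eln and Cxcl12 have their highest means in border spots, Aldh1a2 is higher in the stroma spots, Mfap4 overlaps them, and Pcp4 is highest in core spots.

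Collagens followed. Of the 13 genes of fibrillar and associated collagens 12 were called higher and none lower than in all other spots, with a median log2 fold change of 2.51. Col3a1, a fibrillar collagen of soft organs, had 5360, 5922 and 4892 CPM in border spots, 4310, 3800 and 3767 CPM in core spots, 2523, 1651 and 2113 CPM in stroma spots and 460, 616 and 399 CPM in low-muscle spots. It was above the core in 3 of 3 libraries, at a log2 fold change of 0.33 that did not pass the test (SE 0.12, edgeR, adjusted p = 0.085), and above the stroma spots at a log2 fold change of 1.26 (SE 0.12, edgeR, adjusted p = 4.6e-08). Col1a2, a chain of type I collagen, differed little from the stroma spots, with 5007, 4476 and 4525 CPM in border spots and 4512, 3270 and 4103 CPM there.

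Col12a1 and Col14a1, collagens that sit on the surface of fibrils, passed the test against both the core and the low-muscle spots. Col14a1 (chr15:55307750-55520803) had 324, 236 and 243 CPM in border spots, 146, 95.6 and 122 CPM in core spots, 152, 70.4 and 78.6 CPM in stroma spots and 142, 85.0 and 95.8 CPM in low-muscle spots. It was lost from the genes called highest only in the fit without the library block. Col12a1 had 223, 200 and 166 CPM in border spots and 90.8, 49.0 and 54.6 CPM in core spots. Col11a1, which starts fibrils and is better known from cartilage, had 129, 94.8 and 60.3 CPM in border spots, 42.0, 25.6 and 24.1 CPM in core spots and 208, 124 and 155 CPM in stroma spots. It was no longer called highest without the library of replicates 1 and 2 or without the block.

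Proteoglycans and matricellular proteins, which space and bind the fibres, rose as a list without exceeding the core. Of 20 genes, 18 were called higher than in all other spots and none lower (median log2 fold change 2.00), but against core spots 1 was called higher (Ccn2, a call lost without replicate 4) and 2 lower (Prelp and Sparcl1). Fn1, fibronectin, had 2485, 2122 and 1867 CPM in border spots, 4406, 2538 and 2554 CPM in core spots and 891, 574 and 716 CPM in stroma spots. Dcn, decorin, had 1183, 812 and 725 CPM in border spots, 1453, 762 and 824 CPM in core spots and 471, 222 and 197 CPM in stroma spots. Bgn, biglycan, had the other pattern and was called highest, with 1103, 1258 and 1211 CPM in border spots, 455, 678 and 683 CPM in core spots and 197, 336 and 254 CPM in low-muscle spots, although the stroma spots had 1576, 1440 and 1707 CPM. Basement membrane genes, mostly laminins and type IV collagen, moved least of the matrix lists, with 4 of 12 called higher than in all other spots, none lower, and 0 called either way against core spots.

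Of the 44 genes highest in border spots, 10 belonged to the 5 matrix lists. Besides Eln, Mfap4, Fbln5, Lox, Col12a1, Col14a1, Ccn2 and Bgn these were Mmp2, a gelatinase, and Timp1, an inhibitor of such proteases. Timp1 had 386, 535 and 440 CPM in border spots, 163, 217 and 202 CPM in core spots, 296, 305 and 302 CPM in stroma spots and 114, 186 and 126 CPM in low-muscle spots. It was above the 3 other classes in 3 of 3 libraries. Ccn2, Fbln5 and Mmp2 were no longer called highest without the library of replicates 1 and 2 or without replicate 4. The 44 genes also included 4 globins, described further on. Against the stroma spots, where 702 of 10509 genes (6.68%) were called higher and 558 (5.31%) lower, 10 of the 44 were called higher and 6 lower, and the 6 were Aldh1a2, Clu, Itm2a, Igf1, Mgp and Rnase4. Of these, Igf1, Itm2a, Mgp and Rnase4 lost their place among the 44 without replicate 4.

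Secreted signals were the next group. Igfbp2, which binds insulin-like growth factors (chr1:72824503-72852474), had 496, 291 and 494 CPM in border spots, 125, 88.6 and 167 CPM in core spots, 189, 277 and 214 CPM in stroma spots and 31.8, 60.3 and 32.8 CPM in low-muscle spots. The log2 fold change over core spots was 1.60 (SE 0.25, edgeR, adjusted p = 8.4e-05). Penk, the precursor of the enkephalin peptides, had 1354, 2100 and 1934 CPM in border spots, 511, 893 and 834 CPM in core spots and 191, 313 and 220 CPM in low-muscle spots, under its 2249, 2139 and 3079 CPM in the stroma spots. Nppa, atrial natriuretic peptide, named after its values were seen, had 83.7, 37.4 and 67.8 CPM in border spots, 23.0, 9.32 and 8.03 CPM in core spots and under 1 CPM in every low-muscle library. It was also called higher than in the stroma spots, which had 33.1, 17.6 and 24.0 CPM.

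Npy, a peptide of sympathetic nerves and some stromal cells, showed the second largest rise of the named genes against all other spots. It had 159, 181 and 173 CPM in border spots and 17.5, 10.4 and 11.6 CPM in the others (log2 fold change 3.74, SE 0.14, edgeR, adjusted p = 6.2e-12). Core spots had 98.9, 100 and 120 CPM, which fell short of a 2-fold difference. Sfrp1, a secreted Wnt antagonist, had 121, 146 and 146 CPM in border spots and 47.4, 60.6 and 51.4 CPM in core spots (log2 fold change 1.26, SE 0.21, edgeR, adjusted p = 0.00024). Wnt5a, a Wnt ligand of uterine stroma, had 82.8, 75.5 and 85.0 CPM in border spots and 17.6, 25.6 and 32.1 CPM in core spots. Of the 28 genes of Wnt, Bmp, Tgfb, Igf and Fgf signalling tested in the classes, 10 were called higher than in core spots and 1 lower, with a median log2 fold change of 0.89. Against the Sfrp4 Rbp4 stroma spots 5 were called higher and 9 lower, with a median of 0.15. Against all other kept spots 8 of 34 tested were called higher and 6 lower, with a median of -0.05. The list summed to a mean of 3948 CPM in border spots and 6148 CPM in stroma spots.

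Aldh1a2, which makes retinoic acid (chr9:71215789-71296243), had 115, 122 and 109 CPM in border spots, 24.4, 25.6 and 14.5 CPM in core spots and 41.6, 59.0 and 43.0 CPM in low-muscle spots. The log2 fold change over core spots was 2.29 (SE 0.21, edgeR, adjusted p = 7e-08). The stroma spots had 220, 285 and 273 CPM, above every border library (log2 fold change -1.29, SE 0.12, edgeR, adjusted p = 1.1e-08). The change along muscle level, given next, placed its peak just outside the border window.

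The muscle level of a spot was then cut into steps, leaving out spots over the gland limit. Spots over the stroma limit were left out below 20000 CPM of muscle only, so the steps from there hold all core spots. The summed level of other contractile genes rose at every step, as steps of muscle level lead to, for replicate 3 at 2178, 3664, 7690, 10886, 16940, 22796, 30904 and 39371 CPM in the steps that begin at 0, 500, 4000, 6000, 9000, 15000, 20000 and 30000 CPM of the muscle genes. Eln took another course. In replicate 3 its level in the same steps was 132, 441, 663, 782, 578, 471, 246 and 29.5 CPM, and in the library of replicates 1 and 2 it was 137, 262, 429, 524, 736, 674, 301 and 78.1 CPM. In replicate 4 it was 94.1, 291, 586, 430, 527, 310, 230 and 73.0 CPM. The step with the highest Eln lay inside the border window in 3 of 3 libraries. Among steps of at least 20 spots it was the step from 9000 CPM in the library of replicates 1 and 2 and in replicate 4, and the step from 6000 CPM in replicate 3. Replicate 4 had under 20 spots in the steps from 4000 and 15000 CPM, and replicates 3 and 4 had 2 and 5 spots in the last.

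Mfap4 and Igfbp2 also peaked inside the window in 3 of 3 libraries. For replicate 4, Mfap4 had 2.54, 80.0, 326, 293, 316, 226, 127 and 9.12 CPM along the steps, and Igfbp2 had 22.9, 142, 491, 441, 577, 388, 195 and 36.5 CPM. Aldh1a2 and Col14a1 did not share that place. Aldh1a2 was highest in the step from 500 to 4000 CPM in 3 of 3 libraries, at 233, 279 and 270 CPM, just below the window. Col14a1 had its highest level there in the library of replicates 1 and 2 and in replicate 4, at 449 and 302 CPM, and in replicate 3 at 277 CPM in the step from 6000 CPM. In replicate 3 the summed collagens changed little over the window, with 17673, 17901, 19334 and 18675 CPM in its 4 border steps. Its step from 20000 had 12913 CPM and its step from 0 had 1316 CPM. Among steps of at least 20 spots, replicate 4 had its highest collagen level in the step from 9000 CPM, at 20518 CPM. The library of replicates 1 and 2 had it in the step from 15000 CPM, at 22054 CPM.

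**Figure D3:**
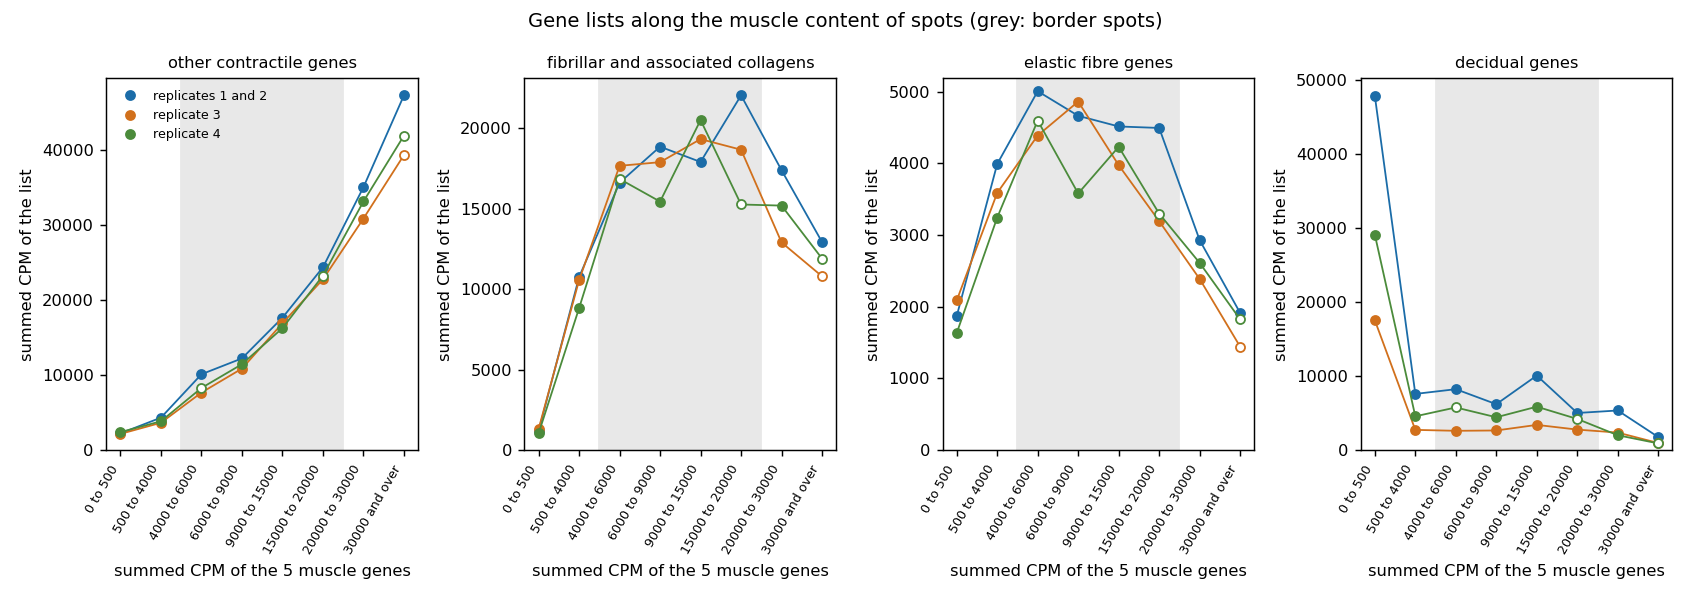
Summed CPM of 4 gene lists in 8 steps of the muscle level of spots, with a line per library, the border window in grey and open points where a step held under 20 spots. Contractile genes climb through the window and beyond it, and decidual genes are highest in the first step. Among steps of at least 20 spots, collagens and elastic fibre genes have their highest step inside the window in every library.

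The position of border spots between the classes was also expressed as a straight line. By their muscle genes, border spots lay 37.1%, 43.2% and 40.9% of the way from low-muscle to core spots, and each gene's level at that point of the line was set against its observed level. The median ratio of observed to line over all 10509 genes was 0.998, 1.00 and 1.00. Other contractile genes had median ratios of 1.02, 1.00 and 1.05, and 16 of 17 lay between the classes in 3 of 3 libraries. The line was placed with the muscle genes of the rule, so this follows from the choice of spots and is no benchmark for other lists. Collagens had 2.60, 2.68 and 2.34, and 11 of 13 lay above both classes in 3 of 3 libraries. Elastic fibre genes had 2.50, 2.03 and 1.89, with 8 of 15 above both. Over all genes tested, 958 (9.12%) lay above both classes, 2696 (25.7%) between them and 327 (3.11%) below both in every library. Decidual genes had ratios of 0.408, 0.433 and 0.619, under the line, with 13 of 16 between the classes.

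**Figure D4:**
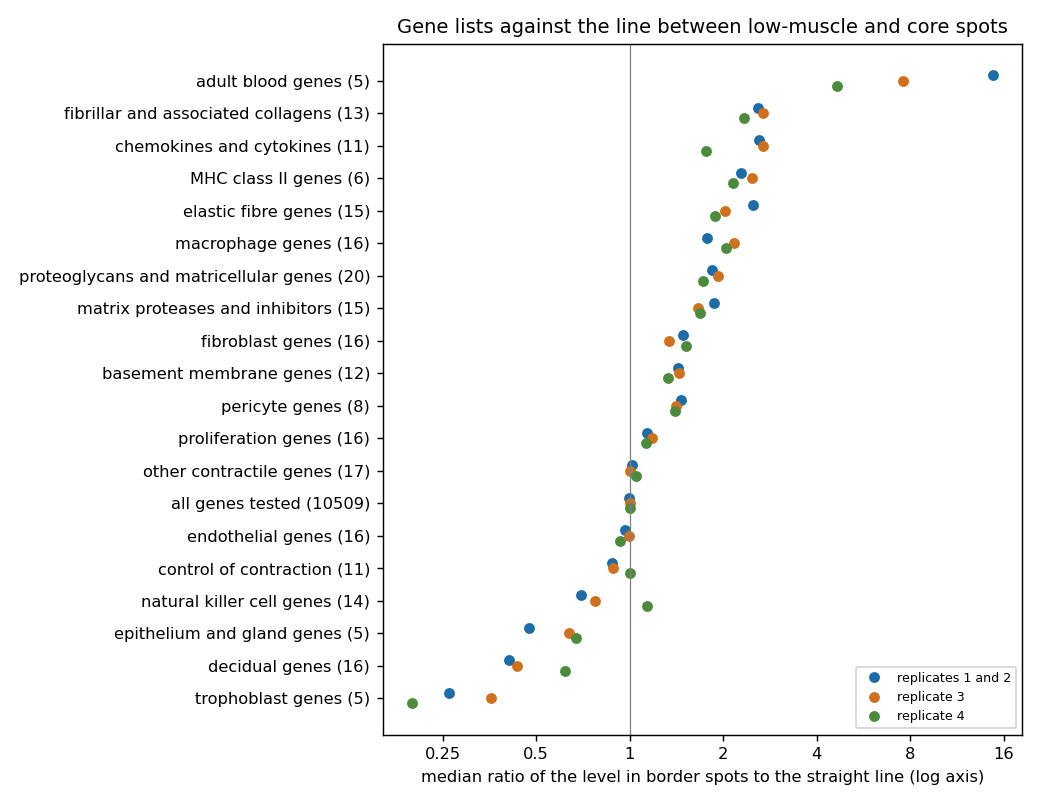
Median ratio of a list's observed level in border spots to the straight line between low-muscle and core spots, on a log axis, with a point per library and the number of genes tested beside each list. Contractile genes and all genes lie between 0.998 and 1.05, matrix, MHC class II and macrophage lists lie at or above 1.33, and decidual and trophoblast lists lie below 1.

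Macrophage and antigen presentation genes were mostly higher in border spots than in all other kept spots, and none of them passed the call against core spots, which does not show that the levels are alike. Of 16 macrophage genes tested, 10 were called higher than in all other spots and 1 lower (Csf1r, the receptor of macrophage growth factor), with a median log2 fold change of 1.40, and 0 were called either way against core spots. C1qa, a complement gene of tissue macrophages, had 151, 215 and 204 CPM in border spots, 138, 154 and 162 CPM in core spots, 88.7, 54.7 and 69.6 CPM in stroma spots and 13.7, 28.6 and 16.4 CPM in low-muscle spots. All 6 MHC class II genes tested, which present antigen, were called higher than in all other spots (median log2 fold change 2.09), and 0 differed from core spots by the call. H2-Ab1 had 147, 152 and 119 CPM in border spots, 135, 100 and 116 CPM in core spots and 31.0, 30.1 and 28.7 CPM in all other spots.

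Chemokines were among the largest rises. Of 14 chemokine and cytokine genes tested 11 were called higher than in all other spots, and Il15, which sustains natural killer cells, was the 1 called lower. Ccl21a, a lymphatic chemokine with near-identical gene copies that share reads, had 88.0, 236 and 140 CPM in border spots and 7.44, 8.22 and 13.8 CPM in the others. It had the largest rise of the named genes (log2 fold change 3.95, SE 0.21, edgeR, adjusted p = 2.7e-10), and core spots had a like level of 46.1, 200 and 154 CPM. Ccl8, a monocyte chemokine, had 65.6, 121 and 81.8 CPM in border spots and 65.0, 90.9 and 108 CPM in core spots. Cxcl12 had 94.8, 86.2 and 73.9 CPM in core spots and was not called different there (log2 fold change 0.47, SE 0.19, edgeR, adjusted p = 0.12). Over the 11 genes of the list tested in the classes, the median ratio to the straight line was 2.60, 2.68 and 1.77. Cxcl14, the most counted member, had 847, 503 and 1055 CPM in border spots, at ratios of 1.18, 0.984 and 1.27. It was called higher than in core spots and lower than in stroma spots.

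Natural killer genes were higher in border spots than in the Sfrp4 Rbp4 stroma. Uterine natural killer cells fill granules with perforin and granzymes at this stage. Their 18 genes summed to 832, 4811 and 3333 CPM in border spots, 383, 3270 and 2127 CPM in core spots, 1790, 9056 and 3794 CPM in low-muscle spots and 223, 297 and 196 CPM in stroma spots. Border spots held more than stroma spots in each library, but the library of replicates 1 and 2 was lower than the others in border, core and low-muscle spots. Against all other kept spots, 17 of the 18 genes were tested, and 2 were called higher (Xcl1 and Ccl5) and 2 lower (Prf1 and Gzma). The median log2 fold change in that comparison was -0.57. Against core spots, 2 of 14 were called higher, Gzmb and Il2rb, none lower, and the median log2 fold change was 0.75. Of 14 tested, 10 were called higher than in stroma spots and none lower, with a median log2 fold change of 4.09, beside -0.01 for all genes. Prf1, perforin, had 30.2, 121 and 74.8 CPM in border spots and 1.95, 4.63 and 1.80 CPM in stroma spots (log2 fold change 4.72, SE 0.34, edgeR, adjusted p = 3e-10). Gzmd, Gzme, Gzmf and Gzmg, granzymes whose close copies may share reads, were among the named rises.

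Fibroblast genes went both ways in that comparison. Of 16 tested, 5 were called higher in border than in stroma spots (Dpt, Thy1, Clec3b, Scara5 and Igfbp6) and 6 lower, with a median log2 fold change of -0.05. Dpt, dermatopontin, a matrix protein that binds decorin, had 195, 166 and 125 CPM in border spots and 41.9, 13.9 and 15.6 CPM in stroma spots. Of 14 stromal transcription factors and steroid receptors, 2 were called higher (Osr1 and Srf) and 5 lower (Hoxd10, Wt1, Hoxa9, Hoxa10 and Hand2), with a median of -0.65. Against all other kept spots, 8 of the 16 fibroblast genes were called higher and 4 lower (Dpp4, Gpx3, Ly6a and Ly6c1). Gpx3 and Ly6a are the most counted genes of the list. Its summed level was therefore lower in border spots, at a mean of 17384 CPM. All other kept spots had 30013 CPM and stroma spots 40941 CPM.

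Some of the genes lower than in the stroma spots differed widely. Igfbp3, an insulin-like growth factor binding protein, had 177, 109 and 154 CPM in border spots and 1423, 1226 and 1536 CPM in stroma spots (log2 fold change -3.38, SE 0.12, edgeR, adjusted p = 9.4e-15). Mt4, a metallothionein of squamous cells, had 174, 102 and 256 CPM in border spots and 1593, 1934 and 2542 CPM in stroma spots. Gatm, the first enzyme of creatine synthesis, had 437, 203 and 253 CPM in border spots, 2351, 2416 and 1928 CPM in stroma spots and 1961, 1231 and 1273 CPM in low-muscle spots. Hand2, a progesterone-regulated transcription factor of uterine stroma, had 123, 114 and 144 CPM in border spots, 304, 351 and 319 CPM in stroma spots and 562, 531 and 619 CPM in low-muscle spots. For these 4 genes the border and stroma libraries did not overlap. They were named for large falls or as list members, and the share of all genes tested that separate in this way is not given. The rule used Sfrp4 and Rbp4 to keep stroma spots apart, and the part of that choice in the direction was not tested.

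Decidual genes were low but present. Of 17 genes tested, 11 were called lower and none higher than in all other spots (median log2 fold change -1.43), while against core spots 8 of 16 were called higher and none lower. Cryab, a small heat shock protein of decidual cells, had 755, 464 and 713 CPM in border spots, 500, 459 and 371 CPM in core spots and 4656, 2852 and 4195 CPM in low-muscle spots. Gja1, the connexin of decidual and muscle gap junctions, had 217, 213 and 224 CPM in border spots, 108, 95.6 and 77.1 CPM in core spots and 1037, 894 and 892 CPM in low-muscle spots. It was the only gene of the contraction control list called lower than in all other spots, where 10 of its 13 tested genes were called higher. Trophoblast genes, from the invading placental cells, summed to 24.2, 28.7 and 38.2 CPM in border spots and to 157, 219 and 310 CPM in all other spots. Prl3d1, placental lactogen, had 6.04, 6.86 and 4.30 CPM in border spots and 82.7, 96.3 and 107 CPM in the others (log2 fold change -4.11, SE 0.17, edgeR, adjusted p = 1.7e-11).

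Endothelial genes lay between those classes. Of 16 genes, 2 (Emcn and Cdh5) were called lower and none higher than in all other spots, while against core spots 7 were called higher and 1 lower (Aqp1), with a median log2 fold change of 1.26. Pecam1, an adhesion protein of vessel walls, had 63.0, 88.6 and 68.9 CPM in border spots, 25.7, 25.6 and 16.1 CPM in core spots and 112, 121 and 130 CPM in low-muscle spots. Kdr, the main receptor for vascular endothelial growth factor, had 31.1, 29.9 and 25.8 CPM in border spots and 6.77, 11.7 and 4.82 CPM in core spots (log2 fold change 1.89, SE 0.33, edgeR, adjusted p = 0.00031). Pericyte genes rose against all other spots in 6 of 10 and fell in none. Genes of the mesothelium, which covers the outer uterine wall, were called higher in 4 of 8 and lower in 1 (Wt1), with a median log2 fold change of 1.76. They summed to 265, 236 and 252 CPM in border spots and 451, 396 and 471 CPM in all other spots. Wt1 and Krt19 are the most counted genes of that list. The part of the mesothelium in the results was not tested.

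Adult globins were among the largest rises against core and low-muscle spots and were very unevenly spread. The 5 blood genes summed to 27348, 4294 and 4748 CPM in border spots, 3896, 485 and 313 CPM in core spots, 384, 428 and 519 CPM in stroma spots and 902, 785 and 1805 CPM in low-muscle spots. The paired copies Hba-a1 and Hba-a2, and Hbb-bs and Hbb-bt, share reads and are uncertain one by one. Hbb-bt had 2102, 273 and 299 CPM in border spots and 259, 25.6 and 24.1 CPM in core spots (log2 fold change 2.79, SE 0.52, edgeR, adjusted p = 0.00066). DESeq2 did not call the globins highest in border spots, nor did edgeR without the block. After thinning each spot to 3000 UMIs, which left out 47, 1 and 0 border spots, the median border spot had 1 blood UMI in each library and the highest had 1825, 384 and 1344. The 10% of border spots with the most held 96.4%, 85.0% and 90.8% of them.

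Other lists were more even over the members. The top 10% of border spots held 17.4%, 18.2% and 17.4% of the contractile UMIs and 20.7%, 17.3% and 18.3% of the collagen UMIs. They held from 19.9% to 20.7% of the elastic fibre UMIs. The same count in every spot would give 10%. Counting error alone lifts the share above 10%, most for lists with few UMIs, and its part was not measured. Decidual genes were patchy, at 52.3%, 41.0% and 42.5%. Natural killer genes were patchy in the library of replicates 1 and 2 (53.1%) and less so in replicates 3 and 4 (26.3% and 26.6%), whose levels were also higher. Every thinned border spot had a UMI of the contractile, collagen and elastic fibre lists.

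**Figure D5:**
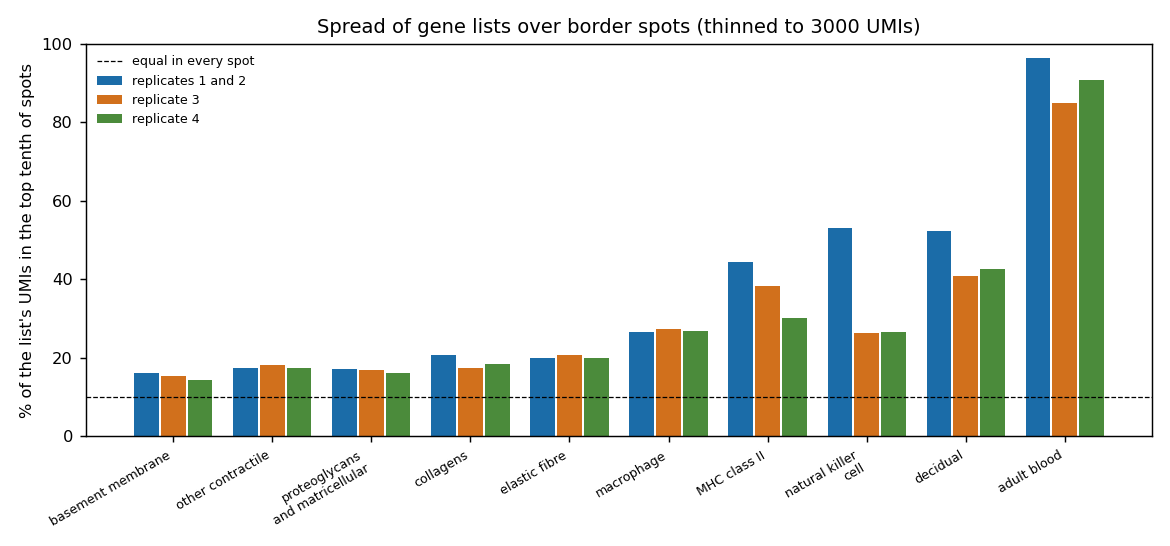
Share of a list's UMIs held by the 10% of border spots with the most, per list and library, after thinning each spot to 3000 UMIs. The dashed line at 10% stands for the same count in every spot, without counting error. Matrix and contractile lists lie between 14.4% and 20.7%, decidual genes above 40% and blood genes above 84%.

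Members were also split by their own muscle level at 9000 CPM, into 139, 58 and 60 muscle-rich and 67, 54 and 45 muscle-poor spots. Of 7884 genes tested, 72 (0.913%) were called higher and 17 (0.216%) lower in muscle-rich spots. Without replicate 3 the first count was 43, and without replicate 4 the second was 11. Contractile genes accounted for 10 of the calls upward, again as the rule leads to, and Pcp4 had 966, 1525 and 952 CPM in muscle-rich and 417, 407 and 354 CPM in muscle-poor spots. The collagen, elastic fibre, proteoglycan, macrophage and MHC class II lists had 0 calls in either direction. Eln had 716, 532 and 457 CPM in muscle-rich and 490, 714 and 484 CPM in muscle-poor spots, higher in 1 of 3 libraries (log2 fold change 0.09, SE 0.13, edgeR, adjusted p = 0.80).

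Some genes ran against the muscle level within the window. Cxcl12 had 103, 105 and 90.9 CPM in muscle-rich and 179, 194 and 159 CPM in muscle-poor spots, with no overlap, although its change fell short of 2-fold (log2 fold change -0.74, SE 0.12, edgeR, adjusted p = 0.00065). Aldh1a2 had 86.6, 76.0 and 71.8 CPM in muscle-rich and 174, 175 and 169 CPM in muscle-poor spots (log2 fold change -1.07, SE 0.13, edgeR, adjusted p = 4e-05). Wnt5a had 63.7, 51.4 and 53.7 CPM in muscle-rich and 123, 103 and 137 CPM in muscle-poor spots (log2 fold change -1.03, SE 0.15, edgeR, adjusted p = 0.00044). Of the 44 genes highest in border spots, 4 were called lower in muscle-rich spots, Aldh1a2, Cyp1b1, Pappa2 and Tmem100, and 0 were called higher. Cyp1b1 lost its place among the 44 when any library was left out. Globins did not move in 1 direction: Hbb-bt had 2701, 33.9 and 83.1 CPM in muscle-rich and 845, 547 and 654 CPM in muscle-poor spots.

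The 7 genes lowest in border spots were Tmem38b, Vldlr, Timm17a, Tsc22d1, Chchd10, Errfi1 and Ptn. Chchd10, a mitochondrial protein, had 68.2, 58.6 and 70.5 CPM in border spots, 192, 145 and 148 CPM in core spots and 98.3, 93.8 and 118 CPM in low-muscle spots. Tmem38b, a cation channel of intracellular calcium stores, had 25.0, 27.4 and 22.1 CPM in border spots, 79.9, 49.0 and 45.0 CPM in core spots and 53.1, 37.1 and 48.7 CPM in low-muscle spots. Border spots were below both classes in every library for these 2 genes, but the stroma spots had like levels, at 50.7, 68.6 and 70.2 CPM for Chchd10 and 17.5, 21.3 and 16.2 CPM for Tmem38b. None of the 7 calls held without replicate 4.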

How the data were processed

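UMI counts per gene and spot were used as deposited by the authors for 3 libraries, with 32285 genes each. They were made with Space Ranger 1.2.2 per the file headers, and with Cell Ranger on mm10 per the submitters' processing notes. The deposited tables list 3978 barcodes, taken as the spots over tissue, and no doublet caller was run. The members and lists were chosen with earlier results of these data known. Counts were summed per library and class (sums of at least 20 spots) and tested with edgeR 4.0.16 in R 4.3.3: quasi-likelihood test, TMM scaling, filterByExpr, the library as a block, since the sums compared come from the same sections, and Benjamini-Hochberg adjustment over all genes tested. The 9 genes of the rule counted towards library sizes only. A gene was called at an adjusted p under 0.05 and a change of at least 2-fold, or 1.5-fold against each neighbour. Genes were named by rule: per comparison the 15 highest and 10 lowest fold changes among calls whose sign was shared by all libraries and whose average log2 CPM reached 4, 12 and 6 for genes highest or lowest in border spots, and per list the 4 smallest p and 2 highest counts. Others named are list members or calls chosen after their values were seen. The fit was tested on simulated data. Alternatives were DESeq2 1.42.0, other scaling, no filter, no block, other cutoffs and leaving out each library. Gene coordinates are from GENCODE release 21 of the mouse annotation (GRCm38).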

Additional observations from a re-analysis of the deposited data

Results flagged for a closer look

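Spots under the minimum of 1000 UMIs entered no comparison. In the library of replicates 1 and 2, 38 spots fell under it, and 18 of them had a muscle level inside the border window, with 5 more at or above 20000 CPM. They held 237 UMIs of the 5 muscle genes among 21467 UMIs, with a median of 621.5 UMIs per spot and a median muscle level of 5967 CPM. Replicate 3 had 1 such spot with 0 muscle UMIs, and replicate 4 had 0 such spots. At this depth a single UMI moves a spot by more than 1000 CPM, so membership of these spots could not be read.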

How the results depend on the processing

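The share of border spots, 10.6% on average, was 9.24% at 5000 UMIs per spot, 6.61% for a window of 6000 to 15000 CPM and 14.3% without the stroma and gland limits. Of the counts and shares under the alternatives, 76 stayed within 1.5 times or 1 SD of the main value and 25 moved. Without the replicate block, 178 genes were called higher than in core spots, 4 were highest and 0 lowest in border spots, and 39 and 6 were higher and lower in muscle-rich spots. The block is the library, since the sums compared come from the same sections. The split at 9000 CPM gave 31 and 4 genes with DESeq2, 4 and 2 in the narrow window, 30 lower without the expression filter and 32 lower at 5000 UMIs. Without that filter 11 genes were lowest in border spots. Leaving out each library gave 150 to 312 genes higher and 197 to 297 lower than core spots, 23 to 43 highest, 0 to 6 lowest, 43 to 61 higher and 11 to 20 lower in muscle-rich spots. The counts against all other spots stayed within 1.5 times in every alternative. Those against the stroma spots did so in every alternative but the fit without the stroma and gland limits, where they were not compared. DESeq2 did not call the 4 globins highest in border spots. Of 294 results of named genes, 197 kept their side of the threshold in every setting and none reversed its direction after a call. The cause of these shifts was not tested. Core spots numbered 27 in replicate 3 and 30 in replicate 4, which limits the precision of the contrasts with the core.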
